A study of Mus musculus with 7 samples.

Results

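Cathepsins are a group of lysosomal proteases, and 10 of their genes, Ctsa, Ctsb, Ctsc, Ctsd, Ctsf, Ctsh, Ctsl, Ctso, Ctss and Ctsz, were followed here among the 23420 genes of a count table from mouse microglia. They were taken by gene symbol, and all 10 had enough counts to be tested, among 11991 genes that did. Microglia, the resident macrophages of the brain, were sorted from the cortex at postnatal day 30 as CD11b+, CD45-low and CX3CR1+ cells, and their polyA RNA was sequenced. The cKO group (n = 4 mice) carried Srgap2f/f with Tmem119creErt2, a recombinase that is active only after tamoxifen and is driven from a gene of mature microglia. The WT group (n = 3 mice) consisted of Srgap2f/f littermates. Mice of both groups were gavaged with tamoxifen, at 75 ug per g in each of 2 doses, on postnatal days 8 and 10. Because only cKO mice carried the recombinase, its effects and those of the deletion cannot be told apart. The study asked how microglial gene expression differs without Srgap2, which encodes a membrane-bending regulator of the actin cytoskeleton.

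Lysosomal cathepsins are made as inactive precursors, carried to the lysosome largely by mannose 6-phosphate receptors, and activated there at low pH. They fall into classes by the residue that cuts the peptide bond. Ctsd is an aspartic protease, Ctsa is a serine carboxypeptidase, and the other members are cysteine proteases of the papain family. In microglia and other phagocytes they degrade engulfed material, and some of them process proteins for antigen presentation by MHC class II molecules.

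The labels were checked on Srgap2 first, in counts scaled to a common library size (CPM), corrected with the TMM factors of edgeR. Here and below, values are listed in replicate order, 1 to 4 for cKO and 1 to 3 for WT. Srgap2 was at 344, 257, 275 and 212 CPM in the cKO mice and at 979, 691 and 693 CPM in the WT mice (272 ± 55.0 against 788 ± 165, SD, n = 4 and 3; adjusted p = 0.0053, edgeR's quasi-likelihood test with Benjamini-Hochberg adjustment). The cKO libraries therefore lay below every WT library at this gene, in counts given per gene and not per exon. Total counts per library ranged from 27016173 to 35707304. Markers of microglia summed to 51320 to 59849 CPM in cKO and 60610 to 63523 CPM in WT, and 1 of the 10, Tmem119, fell (log2 fold change −0.82, adjusted p = 0.046). These sums include Tmem119 itself, at 3005, 3360, 3799 and 4664 CPM in cKO and 6292, 6168 and 7212 CPM in WT. The recombinase of the cKO mice is driven from Tmem119, so an effect of that allele on Tmem119 cannot be told apart from one of the deletion. The other 9 markers did not pass the test. Markers of other cells were far lower and none passed the test. They summed to 66.3 to 131 CPM in cKO and 72.2 to 110 CPM in WT for border-associated macrophages, and to 11.2 to 12.7 and 8.48 to 11.3 CPM for monocytes and neutrophils. Lymphocyte markers summed to at most 0.20 CPM. Astrocyte markers summed to 86.8 to 140 CPM in cKO and 132 to 138 CPM in WT, oligodendrocyte markers to at most 147 and 121 CPM, neuronal markers to 1.29 to 2.71 and 1.40 to 1.64 CPM, and endothelial markers to 52.1 to 69.6 and 66.0 to 74.5 CPM, with Cldn5 and Ly6c1 at 0. Genes of the dissociation response summed to 298 to 357 CPM in cKO and 271 to 353 CPM in WT. Xist was below 1 CPM in cKO replicates 1 and 3 and WT replicate 1 and above 50 CPM in the other 4 libraries. Ddx3y, a Y-linked gene, was at 27.9, 0, 27.2 and 0.18 CPM in cKO and 30.4, 0 and 0 CPM in WT. The libraries low in Xist were thus those with Ddx3y, so the Xist classes used below are also classes of a Y-linked gene. The libraries also differed in how strongly a gene's level followed its GC content (Spearman's rho across genes between −0.52, for cKO replicate 1, and 0.44, for cKO replicate 4).

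The promoters of the family are shown first, because the letters CACGTG, the core of the sites bound by the MiT/TFE factors that drive many lysosomal genes, are in the promoters of some members and not of others. RefSeq promoters (GRCm38.p6), taken as the 250 bases before the transcription start, were matched for 8 of the 10 members, with 9 starts in all. Ctsb and Ctsh had no matched promoter and were not searched. Both strands were searched for CACGTG, for the longer TCACGTGA, which contains it, and for GAGGAAGT, a form of the site of the myeloid factor PU.1. CACGTG was in the promoters of 4 of the 8 matched members, Ctsa (at its second start only), Ctsd, Ctsf and Ctsl. It was in 6.02% of all 32851 promoters of the same length. TCACGTGA was in those of Ctsa and Ctsd, against 0.79% of all promoters, and GAGGAAGT was in that of Ctsc, against 2.44%. Each CACGTG match is printed as 30 bases of the gene's strand, 5′ to 3′, with the CACGTG or TCACGTGA letters in capitals.
Ctsd, far site: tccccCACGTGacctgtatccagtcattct
Ctsd, near site: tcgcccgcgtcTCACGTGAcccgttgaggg
Ctsa, second start: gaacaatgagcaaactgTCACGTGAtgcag
Ctsf: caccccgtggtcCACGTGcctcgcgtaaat
Ctsl: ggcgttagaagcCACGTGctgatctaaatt
The Ctsd sites are at chr7:142388048-142388077 and chr7:142387908-142387937 (minus strand), and their CACGTG letters begin 245 and 98 bases before the start. The Ctsa site, at chr2:164833743-164833772 (plus strand), has its CACGTG letters 12 bases before the second start. That of Ctsf is at chr19:4855074-4855103 (plus strand), 79 bases before the start, and that of Ctsl at chr13:64370739-64370768 (minus strand), 236 bases before it. In the GENCODE M21 annotation of the same build, the far Ctsd site and the Ctsf site lie in no exon of the gene. The other 3 lie within the untranslated part of an exon of a coding transcript, since that annotation holds starts further upstream. These matches describe the letters only, and binding was not measured here.

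Ctsd was by far the most abundant cathepsin. Levels of different genes were compared as scaled CPM per kb of the longest coding transcript. On that scale Ctsd stood at 8522 ± 764 CPM per kb in WT (SD, n = 3) and 6813 ± 1449 in cKO (SD, n = 4), and it ranked 2nd of the 11299 genes with a length in each WT library and 3rd or 4th in each cKO library. Ctss, a cysteine protease that stays active at neutral pH, came next at 2578 ± 1183 CPM per kb in WT. It was followed by the carboxypeptidase Ctsz at 1537 ± 328 and by Ctsb, which cuts both inside proteins and from their ends, at 783 ± 78.8. The aminopeptidase Ctsh (473 ± 39.5) and the carboxypeptidase Ctsa (458 ± 47.0) were not separated, since their WT libraries spanned 432 to 510 and 427 to 512 CPM per kb. Every other pair of neighbours in the order had WT ranges that did not overlap. The lower members were the endopeptidases Ctsf (281 ± 23.5) and Ctsl (187 ± 28.4), the dipeptidyl peptidase Ctsc (107 ± 3.17) and, lowest, Ctso (35.6 ± 2.98). With the median length of each gene's coding transcripts in place of the longest, Ctsd, Ctss, Ctsc and Ctso kept their places, while Ctsa moved to the 3rd place (1738 CPM per kb), Ctsl to the 5th (1381), Ctsf to the 6th (1209) and Ctsh to the 7th (1017). Ctsb, at 783 on both scales, then came 8th, so the order of the middle members depends on the transcript length used.

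**Figure D1:**
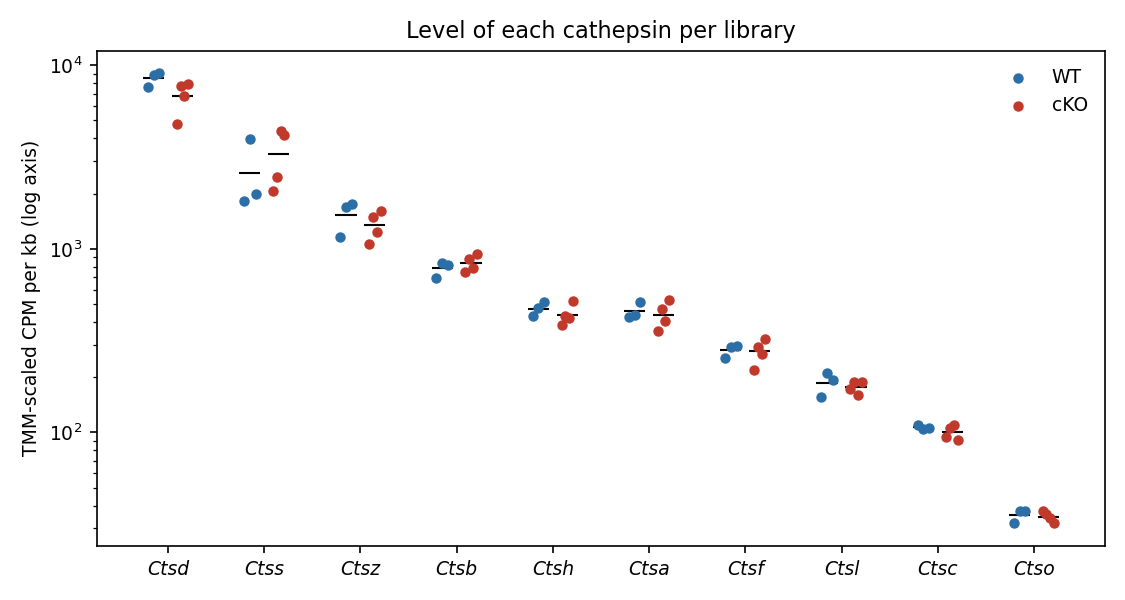
Level of each cathepsin in scaled CPM per kb of its longest coding transcript, on a log axis, with a point per library and a bar at each group's mean. Ctsd lies highest and Ctso lowest in all 7 libraries, and the cKO and WT points of every member overlap.

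The 10 genes took a sizeable part of the microglial transcriptome. They held 2.34%, 2.99%, 3.02% and 3.17% of all counts in cKO and 2.82%, 3.59% and 3.34% in WT (2.88 ± 0.37% against 3.25 ± 0.39%, SD). The groups overlapped, with cKO replicate 1 the lowest library and WT replicate 2 the highest. Ctsd alone made up 49.3 ± 3.06% of the family's counts in cKO and 56.5 ± 2.68% in WT, the 8 cysteine proteases 45.2 ± 3.07% and 38.2 ± 3.32%, and Ctsa 5.49 ± 0.44% and 5.23 ± 0.64%. These shares are of counts and are not corrected for transcript length.

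No cathepsin passed the test between cKO and WT. Of the 10 members, 0 had an adjusted p under 0.05 (edgeR's quasi-likelihood test), against 43 genes or 0.359% of all those tested, and 0 had an unadjusted p under 0.05, against 16.5% of all genes. DESeq2 also called 0 of the 10. The fitted log2 fold change was above 0 for Ctsb and Ctss and below 0 for the other 8 members, with a median of −0.07 beside −0.01 over all genes tested. That median was −0.0032 with Xist as a covariate and 0.04 with Xist and offsets for GC content and length. In scaled CPM the 4 cKO and 3 WT libraries overlapped at every member, whereas 7.2% of all genes had every cKO library below every WT library and 8.86% had every cKO library above. The 95% intervals show which sizes of difference the data leave possible. They lay between −0.38 and 0.36 on the log2 scale for Ctsa, Ctsb, Ctsc, Ctsf, Ctsh, Ctsl and Ctso, but were wider for Ctsz, Ctsd and Ctss. With bulk RNA, fewer cells of a type and less RNA per cell cannot be told apart.

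**Figure D2:**
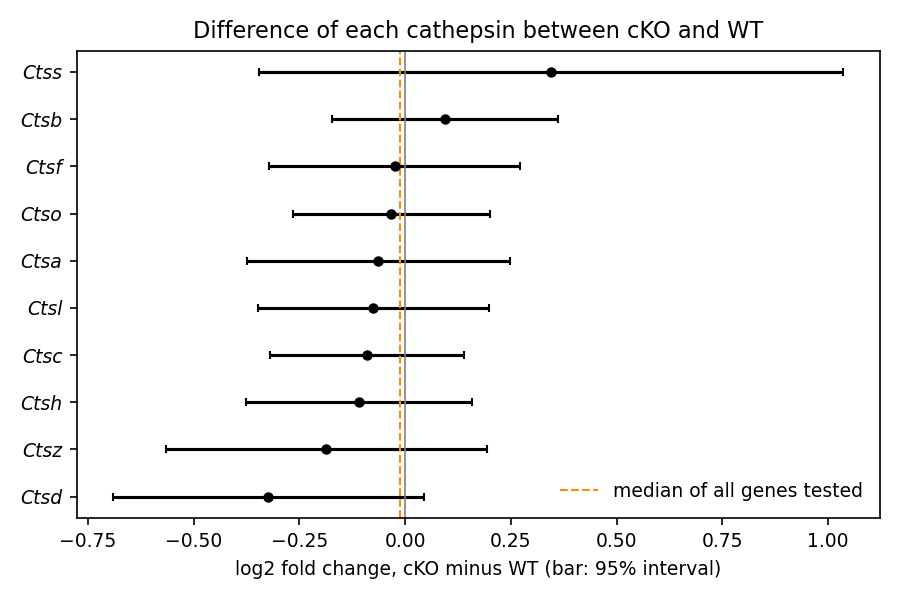
Fitted log2 fold change of each cathepsin, cKO against WT, with its 95% interval, from edgeR's quasi-likelihood fit. All intervals include 0. Ctsd is the farthest below 0 (−0.32) and Ctss the farthest above (0.35), with the widest interval.

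Ctsd, the main aspartic protease of the lysosome, had the smallest p of the family. It was measured at 10138, 16451, 14492 and 16882 CPM in cKO and 16260, 18901 and 19219 CPM in WT. cKO replicate 1 was the lowest library by a wide margin, and cKO replicates 2 and 4 lay above WT replicate 1. The means were 14491 ± 3082 and 18127 ± 1625 CPM (SD), a ratio of 0.80, and the log2 fold change was −0.32 (SE 0.17, 95% interval −0.69 to 0.04). The unadjusted p was 0.079 and the adjusted p was 0.36, which placed Ctsd at 2611 of 11991 genes when ordered by p. Without cKO replicate 1 the log2 fold change was −0.20 (adjusted p = 0.33).

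How Ctsd compared depended in part on the scaling. As a plain share of all counts it was 1.08%, 1.60%, 1.45% and 1.56% in cKO and 1.65%, 1.92% and 1.93% in WT. On that scale each cKO library was below each WT library, which the scaled levels did not show and which held for 9.08% of all genes, with 8.26% separated the other way. The other 9 members overlapped on this scale too. Within the 4 libraries with Xist above 50 CPM, Ctsd was at 16451 and 16882 CPM in cKO and 18901 and 19219 CPM in WT, a mean difference of −12.6%. Within the 3 libraries with Xist below 1 CPM it was at 10138 and 14492 CPM in cKO and 16260 CPM in the single WT library (−24.3%). Among mice numbered above 1100 the difference was −17.7%. Among those numbered below 1100 it was −18.2%, from 10138 and 16451 CPM in cKO and 16260 CPM in the single WT library. There cKO replicate 2 lay above WT, and the lower mean came from cKO replicate 1. Ctsd was lower on average in cKO in each of these subsets, which hold at most 2 libraries of a group and were not tested. The subsets are different divisions of the same libraries, so they are not independent of each other.

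Ctss, which cleaves the invariant chain of MHC class II and is typical of microglia and other antigen-presenting cells, varied most from library to library. It was at 2802, 3346, 5940 and 5663 CPM in cKO and 2461, 5341 and 2680 CPM in WT. The libraries fell at a higher level (cKO replicates 3 and 4, WT replicate 2) and a lower level (the other 4), and each group held libraries at both. The log2 fold change was 0.35 (SE 0.31, 95% interval −0.35 to 1.04, adjusted p = 0.64), so that any ratio from 0.79 to 2.05 lay within the interval. Without WT replicate 2 it was 0.78 and without WT replicate 1 it was 0.15, neither past the threshold. The mean cKO level was 12.3% above WT in the libraries with Xist above 50 CPM. In those with Xist below 1 CPM it was 77.6% above, from 2802 and 5940 CPM in cKO and 2461 CPM in the single WT library. It was 24.9% above among mice numbered below 1100, with the same single WT library, and 44.7% above among those numbered above 1100.

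The neighbours of Ctss on chromosome 3 were read after this pattern was seen. The steps between libraries were also present at Arnt, the gene of a partner for bHLH-PAS transcription factors, which is separated from Ctss by Ctsk alone. Arnt was at 54.0, 47.7, 85.5 and 83.4 CPM in cKO and 53.2, 85.1 and 44.1 CPM in WT. The 3 libraries high in Ctss were the 3 high in Arnt, and its log2 fold change between the groups was 0.15 (SE 0.25, adjusted p = 0.82, edgeR's quasi-likelihood test). Over the 7 libraries Pearson's r of log2 CPM between Ctss and Arnt was 0.93 and Spearman's rho was 0.79, as a description. Of the 8 neighbouring genes that were tested, Arnt had the largest r with Ctss, followed by Ensa (0.76), while Setdb1, on the other side of Arnt, stood at −0.59 and Cers2 at 0.15. The highest level was 1.94 times the lowest for Arnt and 1.19 to 1.79 times for the other 7 neighbours.

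**Figure D3:**
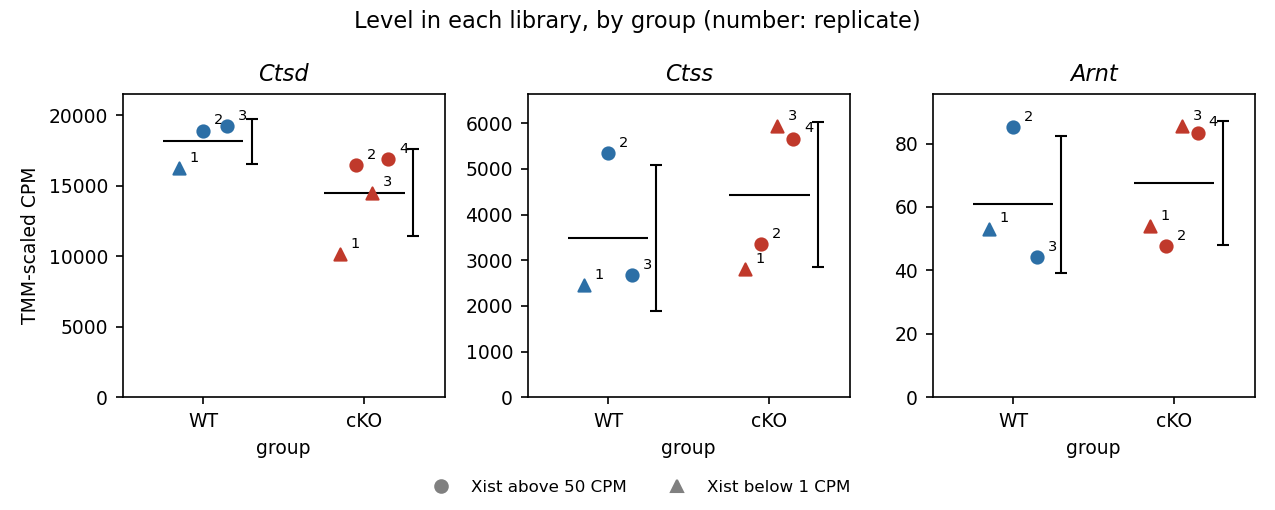
Level of Ctsd, Ctss and Arnt in scaled CPM in each library, by group, with replicate numbers beside the points, bars at the group means and error bars of 1 SD (n = 4 cKO and 3 WT). Circles mark libraries with Xist above 50 CPM and triangles those below 1 CPM. cKO replicates 3 and 4 and WT replicate 2 are high in both Ctss and Arnt, and cKO replicate 1 is lowest in Ctsd.

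The other abundant cysteine proteases differed less. Ctsz was at 1538, 2146, 1785 and 2314 CPM in cKO and 1672, 2441 and 2531 CPM in WT. The lowest libraries were the first replicates of both groups, and the log2 fold change was −0.19 (SE 0.17, 95% interval −0.57 to 0.19, adjusted p = 0.65). Leaving out WT replicate 1 gave −0.35, leaving out WT replicate 3 gave −0.08, and Xist as a covariate gave −0.04. Ctsb was at 3548, 4157, 3720 and 4429 CPM in cKO and 3282, 3962 and 3891 CPM in WT. The groups overlapped through most of their range, with a log2 fold change of 0.09 (SE 0.12, 95% interval −0.17 to 0.36). Ctsl, an endopeptidase of the same subfamily as Ctss, was at 1065, 1154, 992 and 1163 CPM in cKO and 960, 1304 and 1191 CPM in WT. Both its lowest and its highest library were WT, and the log2 fold change was −0.07 (SE 0.12).

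The remaining members also overlapped between the groups. Ctsh was at 623 to 836 CPM in cKO and 698 to 825 CPM in WT (log2 fold change −0.11, 95% interval −0.38 to 0.16). Ctsf was at 434, 580, 531 and 642 CPM in cKO and 502, 581 and 585 CPM in WT, with a log2 fold change of −0.02 (95% interval −0.32 to 0.27). Ctsc, which activates the serine proteases of leukocyte granules, was at 292 to 355 CPM in cKO and 336 to 355 CPM in WT (−0.09, 95% interval −0.32 to 0.14). Ctso was at 111 to 129 CPM in cKO and 112 to 130 CPM in WT (−0.03, 95% interval −0.26 to 0.20). The serine carboxypeptidase Ctsa, which also protects the lysosomal enzymes Neu1 and Glb1, was at 1297, 1715, 1469 and 1911 CPM in cKO and 1557, 1586 and 1867 CPM in WT (−0.06, 95% interval −0.37 to 0.25). For all 5 the cKO and WT means lay within 1 SD of the larger group spread, with adjusted p values from 0.71 to 0.95.

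Several members varied together from library to library, whichever the group. The pooled SD within groups of log2 CPM was 0.57 for Ctss, larger than in 99.6% of the 1568 genes as abundant as the family. It was 0.29 for Ctsz and 0.28 for Ctsd, larger than in 93.8% and 90.9% of those genes, and 0.11 for Ctsc and Ctso, below the median of 0.16. Over all 7 libraries the highest level was 2.41 times the lowest for Ctss, 1.90 times for Ctsd, 1.65 times for Ctsz and 1.16 times for Ctso. Ctsa, Ctsd, Ctsf, Ctsh and Ctsz, the 5 members whose transcripts have a GC content above the median of all genes (51.2% to 57.3%, against 50.3%), departed together. Their 10 pairwise correlations of log2 CPM over the 7 libraries ranged from 0.81 to 0.91, with a median of 0.86. The members with GC content from 41.1% to 49.2% varied with them to different degrees. Ctsl with Ctsz (0.84) and Ctsb with Ctsf (0.82) reached the same range, whereas the lowest correlation of all 45 pairs, −0.47, was that of Ctsb with Ctsc, and the median of all 45 was 0.48. When each library's trend on GC content and transcript length was removed, the median of the same 10 correlations was 0.58 (range 0.16 to 0.77) and that of all 45 pairs was 0.56, so that the 5 genes were no longer apart from the family. The pooled SD was then 0.18 for Ctsd, 0.17 for Ctsz and 0.55 for Ctss. It was larger than before for Ctsl (0.30, from 0.17), Ctsb (0.19, from 0.15), Ctsc (0.15, from 0.11) and Ctso (0.14, from 0.11). Whether the removal itself added variation shared by these genes was not tested. These correlations rest on 7 shared libraries of 2 groups and describe them only. With offsets for that trend the log2 fold change of Ctsd was −0.26 (adjusted p = 0.21).

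**Figure D4:**
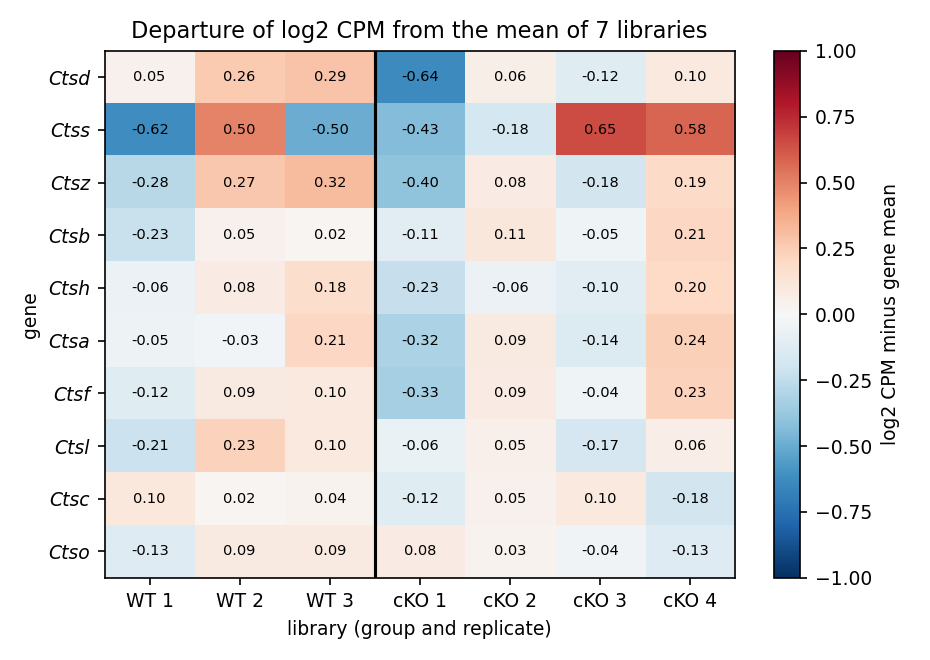
Departure of each cathepsin's log2 CPM from its mean over all 7 libraries, with a column per library. Ctsa, Ctsd, Ctsf, Ctsh and Ctsz are lowest together in cKO replicate 1, and Ctss is high in cKO replicates 3 and 4 and WT replicate 2.

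Ratios between members were compared because they do not depend on the library scaling. Of 45 pairs of members, 5 had cKO and WT ratios that did not overlap, or 11.1%, against 27.9% of all pairs of genes as abundant as the family. Ctsd was in 3 of the 5 (with Ctsb, Ctsf and Ctsa), and Ctsb was also in 3 (with Ctsd, Ctsh and Ctsf). Ctsb reached 35.0%, 25.3%, 25.7% and 26.2% of the Ctsd count in cKO and 20.2%, 21.0% and 20.2% in WT. Each cKO library was above each WT library, at 28.0 ± 4.65% against 20.5 ± 0.43% (SD). Ctsf reached 3.82 ± 0.33% of the Ctsd count in cKO and 3.07 ± 0.02% in WT. Ctsh was at 17.9 ± 0.90% of Ctsb in cKO and 20.6 ± 1.05% in WT. The two-sided exact permutation p for these 3 pairs was 0.029, the smallest that 35 divisions of the libraries can give, and 0.43 after Benjamini-Hochberg adjustment over the 45 pairs. The share of such pairs in the family was below that of all abundant genes.

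Genes whose pattern over the libraries was most like that of Ctsd and of Ctss, the member with the smallest p and the one next to it, were sought among 8199 genes of at least 10 CPM. Nearest to Ctsd were Lrrc14 (Pearson's r of log2 CPM 0.99 and Spearman's rho 0.93 over 7 libraries), Sh3bp5l (0.98 and 1) and the mitochondrial ubiquitin ligase Mul1 (0.98 and 0.96). Nearest to Ctss were Fancg, of the Fanconi anaemia DNA repair pathway (0.98 and 0.96), the chemokine-like factor Cklf (0.97 and 0.96) and the adaptor Grap (0.94 and 0.86). Each was picked as an extreme of 8199 genes, and the 7 libraries are shared. Correlation does not measure the size of a difference. Over the 7 libraries Fancg was at 14.5 to 17.3 CPM, Cklf at 18.6 to 24.5 CPM and Grap at 113 to 178 CPM. These are smaller ranges than that of Ctss, whose highest level was 2.41 times its lowest.

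Other cathepsins were scarce in these cells. Of 13 listed, Ctse and Ctsw could be tested and neither passed (log2 fold change −0.42, adjusted p = 0.70, and −0.09, adjusted p = 0.95). Ctsk, the osteoclast collagenase whose gene lies beside Ctss, had 0 to 5 counts per library, and 9 others had 0 in every library. Of 8 other lysosomal peptidases 0 passed, with a median log2 fold change of 0.02, although 1 passed with DESeq2 and in the fits with Xist. The smallest p values were those of the gamma-glutamyl hydrolase Ggh (0.45, adjusted p = 0.15), the aspartic protease Napsa (0.63, adjusted p = 0.31), the tripeptidyl peptidase Tpp1 (0.19, adjusted p = 0.33) and the dipeptidyl peptidase Dpp7 (−0.18, adjusted p = 0.55).

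Among inhibitors of cysteine cathepsins, 4 of 21 listed were abundant enough to test and 0 passed, although 1 passed in the fits with Xist. Cst3, the secreted inhibitor cystatin C, was at 16778, 29926, 23353 and 30216 CPM in cKO and 21013, 26430 and 26681 CPM in WT. Its cKO libraries spanned the whole WT range, and its log2 fold change was 0.02 (adjusted p = 0.97). The intracellular inhibitor Cstb had a log2 fold change of 0.40 (adjusted p = 0.34), Cst7 of −0.19 (adjusted p = 0.85) and Ctla2b of 0.15 (adjusted p = 0.88). Partners of the cathepsins in the lysosome differed as little, with 0 of 4 past the threshold. They were Psap, the precursor of the saposins (0.05, adjusted p = 0.87), Grn, the progranulin gene (−0.03, adjusted p = 0.95), and the Ctsa-bound enzymes Neu1 (−0.19, adjusted p = 0.48) and Glb1 (−0.20, adjusted p = 0.83).

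Genes for the delivery and activation of cathepsins gave no call either. Of 12 genes of lysosomal enzyme transport 0 passed (median log2 fold change 0.09), led by the retromer subunits Vps29 (0.40, adjusted p = 0.14) and Vps26a (0.26, adjusted p = 0.28), the sorting adaptor Gga3 (−0.24, adjusted p = 0.35) and the mannose 6-phosphate receptor M6pr (0.17, adjusted p = 0.43). Of 16 tested genes of lysosome acidification, from 18 listed, 0 passed the adjusted threshold and 5 had an unadjusted p under 0.05, against 16.5% of all genes. Their median was 0.15, with 11 higher and 5 lower in cKO (5768 and 6223 over all genes), and the smallest p values were those of the proton pump subunits Atp6v1f (0.55, adjusted p = 0.14), Atp6v1g1 (0.41, adjusted p = 0.16) and Atp6v1a (0.30, adjusted p = 0.19) and the chloride transporter Clcn7 (−0.29, adjusted p = 0.21). The MiT/TFE factors, Tfeb (−0.07), Tfe3 (−0.10), Mitf (−0.10) and Tfec (0.02), also gave 0 of 4, with adjusted p values from 0.75 to 0.99. Of 7 genes of MHC class II processing, to which Ctss contributes, 0 passed the adjusted threshold and 3 had an unadjusted p under 0.05, again against 16.5% of all genes. Their median was −0.35, with H2-Aa at −1.32 (adjusted p = 0.20), H2-Eb1 at −1.28 (adjusted p = 0.21), H2-Ab1 at −0.73 (adjusted p = 0.26) and the invariant chain Cd74 at −0.35 (adjusted p = 0.52).

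Some members share genomic sequence with a neighbour in the annotation, and whether the counting used strand is not given in the sources used here. Ctsz overlaps Nelfcd (13372 counts over all libraries), Ctsb overlaps Fdft1 (2419 counts) and Ctsa overlaps Neurl2 and Pltp (776 counts each), all on the opposite strand. Others overlap on the same strand, where reads could not be separated by strand: Ctsd with the predicted coding gene Gm49369, Ctsl with the processed pseudogene Gm49230 and Ctss with the processed pseudogene Hmgb1-ps5. These 3 were not analysed here. Ctsf, Ctsh and Ctso overlap no other annotated gene.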

How the data were processed

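RNA of sorted cortical microglia from 4 cKO and 3 WT mice was sequenced, each library from a separately numbered mouse. The p-values therefore rest on the spread between libraries of different mice. The authors deposited whole-number counts per gene, not normalized. DRAGEN and the GRCm39 build are named in the submitters' processing notes, while the gene annotation, the way reads were counted and any use of strand were not stated in the sources used here. No replicate pair was a repeat of the same library (chi-square over genes 18.8 to 97.1 times its degrees of freedom).

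Genes were kept with filterByExpr (least count 10, least total 15) and cKO was compared with WT by edgeR's quasi-likelihood F test (edgeR 4.0.16, limma 3.58.1, R 4.3.3; robust, TMM factors, no covariate), with Benjamini-Hochberg adjustment over all 11991 genes and a threshold of 0.05. The script was checked on simulated counts. Log2 CPM used a prior count of 2. Lengths and GC content came from GENCODE M21 transcripts (94.2% of the genes tested), and promoters from RefSeq. The cathepsins, the gene lists and the tests were chosen with earlier results of these data known. All members are described, and of each list up to 4 genes with the smallest p are named unless some passed. Alternatives were other scaling factors, DESeq2 1.42.0, limma-voom, other filters, Xist, mouse-number and GC terms (loess, span 0.3), and leaving out each library. Removing the GC and length trend from the correlations, ratios between members and plain shares of all counts over all genes were added after seeing the data.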

Additional observations from a re-analysis of the deposited data

How the results depend on the processing

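Under all 21 alternatives 0 of the 10 cathepsins passed the adjusted threshold. Ctsb, Ctsc, Ctsd, Ctsh, Ctss and Ctsz kept their direction in all 21. The log2 fold change of Ctsd ranged from −0.43 (replicate block) to −0.20 (without cKO replicate 1), with its smallest adjusted p, 0.080, under limma-voom with sample quality weights. That of Ctss ranged from 0.15 to 0.78 and that of Ctsz from −0.35 to −0.02. The median of the members lay between −0.11 and 0.04, and above 0 only with GC and length offsets and Xist. The members near 0 changed sign in some fits. With the Xist covariate the log2 fold change was 0.056 for Ctsf, 0.014 for Ctsa and 0.013 for Ctsl; with the mouse-number block and Xist it was 0.062, 0.017 and 0.017; with GC and length offsets and Xist it was 0.071, 0.056 and 0.079, and 0.033 for Ctso. Ctsf was at 0.010 with the mouse-number block and 0.040 with GC and length offsets, and Ctso at 0.0078 with the replicate block. Leaving out a library gave −0.16 to 0.024 for Ctsa, −0.11 to 0.056 for Ctsf, −0.19 to 0.012 for Ctsl and −0.10 to 0.0040 for Ctso. The cause was not tested.

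The number of genes past the threshold over the whole table moved from 43 to 538 with DESeq2, 904 with limma-voom and sample quality weights, 89 with no filter, 1055 with the Xist covariate, 170 with the mouse-number block, 1621 with both terms, 648 with GC and length offsets and 1460 with these and Xist. It ranged from 4 to 142 when a library was left out. Among the pathway lists, up to 6 of 16 acidification genes, 2 of 12 transport genes, 2 of 7 MHC class II genes, 1 of 8 other peptidases and 1 of 4 inhibitors passed in some of these fits. Replicate numbers are shared by the groups, and the same-numbered pairs' deviations from their group means correlated at 0.39, 0.07 and −0.17. Not every library correlated best with its own number. With group means of 4 and 3 libraries, these correlations cannot decide whether the libraries were paired. With the replicate block, in which cKO replicate 4 has no partner, 288 genes passed, and the adjusted p of Ctsd was 0.084.

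With 4 and 3 mice the precision is limited by the spread between libraries and not by depth. Even Ctso had at least 111 CPM in each library. Each library came from a different mouse, so spread between mice and spread from library preparation cannot be told apart. Sex, litter and sort batch are not in the labels, and the part of Xist and of GC content in the results was not tested beyond the fits above.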

Other observations

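Ctla2b, which is related to the propeptide of cysteine cathepsins and lies on another chromosome than Ctss, was singled out after its values were seen. It was at 2.91, 3.15, 6.19 and 5.21 CPM in cKO and 2.34, 6.13 and 3.35 CPM in WT, from 64 to 193 counts per library. The 3 libraries high in Ctss and Arnt (cKO replicates 3 and 4, WT replicate 2) were also its highest. Over the 7 libraries its log2 CPM had a Pearson's r with Ctss of 0.96 and a Spearman's rho of 0.86, as a description of these libraries. No genotype beyond Srgap2 and the recombinase is in the labels, and what the 3 libraries share was not tested.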
